A study of Mus musculus with 2 samples.

Results

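The genes described here are 33 protein-coding genes whose products circulate in blood plasma and act in coagulation or complement. They were taken by name from the GENCODE M21 annotation, in which all 33 were found among 21884 uniquely named protein-coding genes. The 20 coagulation genes encode clotting factors (F2, F5, F7, F9, F10, F11, F12, F13b), the 3 fibrinogen chains (Fga, Fgb, Fgg), plasminogen (Plg), the anticoagulants protein C and protein S (Proc, Pros1), protein Z (Proz), and the contact and fibrinolysis proteins (Kng1, Kng2, Klkb1, Hrg, Cpb2). The 12 complement genes encode C2, C3, C6, the 3 chains of C8 (C8a, C8b, C8g), C9, factors B and I (Cfb, Cfi), and the lectin-pathway proteins Masp1, Masp2 and Mbl2. Vtn, which encodes vitronectin, a plasma protein that acts in both systems, was counted apart. They were taken by the names of their products and not by their peaks, although earlier results of these data were known.

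Chromatin accessibility had been measured by DNase-seq in embryonic mouse liver at an age of 13.5 days. The enzyme DNase I cuts exposed DNA between or beside nucleosomes, so a peak marks a stretch of open chromatin and a footprint marks a short protected stretch inside it. The 2 libraries are labelled as biological replicates 1 and 2 with the same donor label, on a mixed C57BL/6N,129 background. Both are wild type except for multiple copies of a yeast artificial chromosome, the A85 YAC, sex was not collected, and the labels name no second condition. All values therefore belong to 1 group of 2 replicates, and no test of conditions was possible. The sources used here do not say what sequence the YAC holds.

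Coagulation factors are mostly protease precursors that activate each other in a cascade ending in thrombin, the product of F2, which turns fibrinogen into fibrin. Complement is a second cascade, started by antibodies, by sugars that Mbl2 binds or by slow activation of C3, and it ends in a membrane pore built from C6, C8 and C9 among others. Hepatocytes secrete nearly all of these proteins, and their promoters are textbook targets of the liver factors such as HNF4 and C/EBP. At this age the liver is also the main site of red cell formation, so hepatocyte precursors share the tissue with a large erythroid population. In bulk tissue, fewer cells of a type and less open chromatin per cell cannot be told apart.

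Most of these genes had no open chromatin at their starts that both libraries recorded. A region holding peaks of both replicates (a shared region) lay within 1 kb of a transcript start for 5 of the 33 genes (15.2%), against 58.4% of all protein-coding genes. The 5 were Pros1 and F10 among the coagulation genes and C2, C3 and C8g among the complement genes. Another 9 genes (27.3%, against 8.72% of all genes) had peaks of 1 replicate only, and 19 (57.6%, against 32.9% of all genes) had no peak in either. When regions lying nearer to a start of another gene were set aside, the count stayed at 5 of 33, against 57.4% of all genes. The plot of promoter peaks by gene shows these 3 classes.

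**Figure D1:**
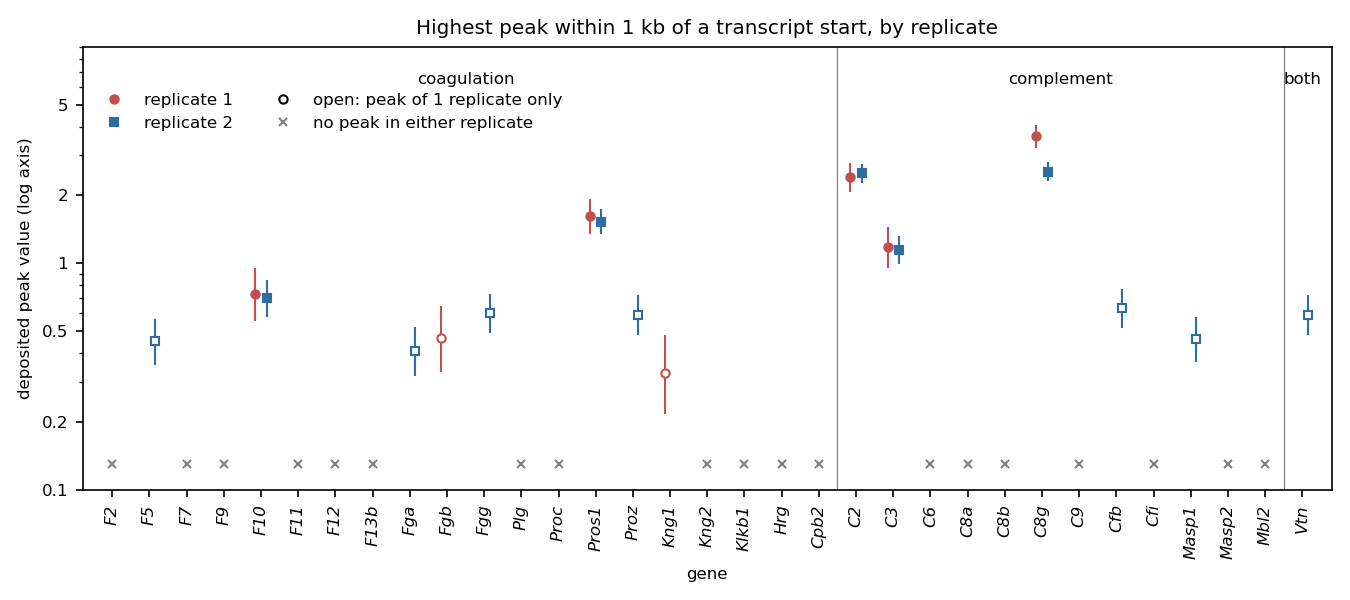
Highest deposited peak value (log axis) within 1 kb of any transcript start of each of the 33 genes, for replicate 1 (circles) and replicate 2 (squares), with 95% Poisson intervals of the recovered counts. Filled symbols are regions with peaks of both replicates, open symbols are peaks of 1 replicate, and crosses at the foot mark the 19 genes with no peak. C8g, C2, Pros1, C3 and F10 carry filled symbols.

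Peak values have no named scale, but within each library they were whole multiples of a fixed step (0.0127 in replicate 1, 0.00604 in replicate 2), which gives the count behind each peak. The median peak held 69 counts in replicate 1 and 126 in replicate 2, so replicate 2 was counted more deeply. Replicate 1 had 76130 peaks and replicate 2 had 73852, and 45831 of 99252 merged regions were shared. The median ratio of replicate 2 to replicate 1 over all shared regions was 0.878. Intervals given with values are 95% Poisson intervals of these counts and cover counting error only.

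Among the coagulation genes, 2 of 20 (10%) had a shared promoter region. Pros1 encodes protein S, the cofactor of activated protein C. Its region at chr16:62854181-62854580 (mm10) covered the 5' end of the gene, with a value of 1.61 in replicate 1 (127 counts, 1.34 to 1.91) and 1.53 in replicate 2 (253 counts, 1.34 to 1.73). The intervals of both replicates overlapped, and the region held 1 footprint found in both libraries. F10, which encodes the factor that forms the prothrombin-cleaving complex with factor V, had a region at chr8:13037538-13037899. It held an F10 transcript start and began 230 bp downstream of the 5' end of the gene, over coding and untranslated exon. Its values were 0.734 (58 counts, 0.557 to 0.949) and 0.700 (116 counts, 0.579 to 0.840), less than a median promoter region (2.62 in replicate 1 and 2.40 in replicate 2 over all 19984 shared promoter regions). A peak just upstream of the F10 5' end (8 bp away) was recorded in replicate 1 alone, at 0.468.

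Fibrinogen is a 6-chain protein made from 3 genes that lie side by side on mouse chromosome 3, and each of the 3 starts carried a peak in 1 library and no shared region. Fgg had a peak in replicate 2 at 0.604 (100 counts, 0.491 to 0.734) that covered its 5' end. Fga had one in replicate 2 at 0.410 (68 counts, 0.319 to 0.520), 46 bp into the gene. Fgb had one in replicate 1 at 0.468 (37 counts, 0.330 to 0.645), 2 bp into the gene. The peaks of the 3 genes thus did not come from the same library. The deposited false discovery rate (FDR) for the bases within 250 bp of the Fgg 5' end also passed the 0.05 limit in replicate 1, with a minimum of 0.0437 over 15 bases, although no peak was listed there. At Fga and Fgb the other library had no base under that limit within 1 kb.

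The remaining coagulation genes with a start peak in 1 library were F5, Proz and Kng1. F5, the gene for the cofactor of factor Xa, had 0.453 in replicate 2 (75 counts), 23 bp into the gene. Proz, which encodes a vitamin K-dependent plasma protein, had 0.592 in replicate 2 (98 counts), 30 bp into the gene. Kng1, which encodes the kininogen that releases bradykinin, had 0.329 in replicate 1 (26 counts), 287 bp into the gene. These values all lay under the median peak of their library (0.873 in replicate 1 and 0.761 in replicate 2). The other 12 coagulation genes, F2, F7, F9, F11, F12, F13b, Plg, Proc, Kng2, Klkb1, Hrg and Cpb2, had no peak within 1 kb of any start. Cpb2, which encodes the fibrinolysis inhibitor TAFI, had 22 bases under the FDR limit near its 5' end in replicate 2 (minimum 0.0352), without a listed peak.

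Among the complement genes, 3 of 12 (25%) had a shared promoter region, and at C2 and C8g these regions lay beside starts of other genes. C2 encodes the protease subunit of the classical C3 convertase. Its highest region, chr17:34898321-34898400, lay 56 bp upstream of the C2 5' end and 69 bp from a start of Ehmt2, a histone methyltransferase gene. Its values were 2.39 in replicate 1 (189 counts, 2.06 to 2.76) and 2.499 in replicate 2 (414 counts, 2.26 to 2.75), with overlapping intervals. C8g encodes the gamma chain of C8. Its highest region, chr2:25500581-25501100, held a transcript start of C8g and also a start of Fbxw5, an F-box protein gene. It had 3.63 in replicate 1 (287 counts, 3.22 to 4.08) and 2.54 in replicate 2 (420 counts, 2.30 to 2.79). The region over the C8g 5' end itself was lower, at 0.468 in replicate 1 and 0.978 in replicate 2.

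C3, the protein on which all complement pathways converge, was the remaining gene with a shared promoter region, and the region was not at its 5' end. It lay in an intron at chr17:57219241-57219460, 512 bp from an internal transcript start and 8676 bp from the 5' end of the gene. Its values were 1.18 in replicate 1 (93 counts, 0.950 to 1.44) and 1.15 in replicate 2 (190 counts, 0.990 to 1.32), and it held 2 shared footprints. At the C3 5' end replicate 1 had a peak of 0.709 (56 counts, 0.535 to 0.920) and replicate 2 had none. With the 5' end of each gene as the only start, C3 became a gene with a peak of 1 replicate, and 4 of the 33 genes had a shared promoter region.

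Cfb, Masp1 and Vtn had start peaks in replicate 2 alone. The peak nearest the 5' end of Cfb, the protease subunit of the alternative C3 convertase, had 0.634 (105 counts, 0.518 to 0.767) and lay 118 bp into the gene. Masp1, a protease of the lectin pathway, had 0.465 (77 counts), 195 bp into the gene, and Vtn had 0.592 (98 counts), 30 bp into the gene. C6, C8a, C8b, C9, Cfi, Masp2 and Mbl2 had no peak within 1 kb of a start. The pore-forming components were thus represented at their starts by C8g alone.

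The FDR values can be read at the same starts without the peak list, but they come from the same libraries and are not a separate measurement. Within 250 bp of the 5' end, peaks lay at 6 genes in replicate 1, 11 in replicate 2 and 13 in either. Over all 21884 protein-coding genes these counts were 11249, 12326 and 12665. Within the same distance, 7 of the 33 genes had bases under the limit in replicate 1 and 12 had them in replicate 2. Over all 21884 genes, 11561 had them in replicate 1 and 12755 in replicate 2. In either library 14 of the 33 had them, against 59.7% of all protein-coding genes. A footprint found in both libraries lay within 1 kb of a start for 4 genes (12.1%), against 52.3% of all genes. These were C8g with 5, C2 and C3 with 2 each, and Pros1 with 1. Those of C2 lay outside its shared regions.

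The starts of these genes are poor in CpG dinucleotides, which most broadly used promoters are rich in. Over the 300 bases from 250 upstream to 50 downstream of the 5' end, the median ratio of observed to expected CpG was 0.251 for the 33 genes and 0.524 for all genes. The ratio was under 0.6 for 31 of the 33 (93.9%), against 55.7% of all genes. Among such CpG-poor genes a shared promoter region was found for 3 of 31 (9.68%), against 33.7% of all 12180 of them, and peaks of 1 replicate only for 9 (29.0%) against 10.6%. Both genes above that ratio, Pros1 (0.645) and C2 (0.797), had shared regions, as did 89.4% of all genes above it. CpG content thus moved with the presence of a shared region, and its part in the low count was not tested.

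The upstream sequences show what these promoters hold. Those of Pros1 (CpG-rich, shared region) and of Fga and Fgb (a peak in 1 library each) are printed from 250 bases upstream to the base before the 5' end, on the strand of the gene, from the RefSeq copy of GRCm38.p6. They are chr16:62854057-62854306 (plus strand), chr3:83025826-83026075 (plus) and chr3:83049864-83050113 (minus). They were chosen after their values were seen. Capitals mark matches to the motifs searched.
Pros1: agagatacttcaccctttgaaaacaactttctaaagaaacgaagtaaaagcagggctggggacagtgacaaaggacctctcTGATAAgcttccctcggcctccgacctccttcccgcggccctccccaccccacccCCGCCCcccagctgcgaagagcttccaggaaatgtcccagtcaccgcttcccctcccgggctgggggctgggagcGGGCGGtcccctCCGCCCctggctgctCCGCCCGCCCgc
Fga: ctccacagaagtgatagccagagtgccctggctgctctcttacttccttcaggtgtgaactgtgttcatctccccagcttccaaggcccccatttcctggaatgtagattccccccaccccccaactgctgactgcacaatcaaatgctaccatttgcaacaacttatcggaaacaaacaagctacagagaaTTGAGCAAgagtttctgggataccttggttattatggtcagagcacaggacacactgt
Fgb: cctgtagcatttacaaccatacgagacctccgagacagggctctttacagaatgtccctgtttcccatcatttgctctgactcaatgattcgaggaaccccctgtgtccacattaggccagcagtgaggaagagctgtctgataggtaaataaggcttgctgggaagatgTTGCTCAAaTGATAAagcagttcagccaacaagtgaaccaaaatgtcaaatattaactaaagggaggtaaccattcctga

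Pros1 carried 5 copies of the SP motif (GGGCGG or its complement, 2 of which overlap) and 1 GATA match. Fga carried a C/EBP match, and Fgb carried a C/EBP match and a GATA match. These are matches of letters, not shown to be bound sites.

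Over all 33 promoters of 300 bases, letters of liver factors were more frequent than in all protein-coding promoters of the same length. C/EBP letters (TTGCNNAA) were found in 9 of 33 (27.3%) against 10.6% of all promoters. ONECUT letters (ATTGAT) stood in 6 (18.2%) against 6.90%, and HNF4 letters (CAAAGTNCA) in 2, F9 and Cfb (6.06%), against 1.31%. FOXA letters (TGTTTAC) stood in 2, F11 and Klkb1 (6.06%), against 3.06%. SP letters (GGGCGG) were found in 4 (12.1%) against 43.0%, and ETS letters (CCGGAA) in 1, Proz (3.03%), against 17.4%. GATA letters (AGATAA or TGATAA), those of the main erythroid factor, stood in 5 (15.2%) against 16.7%. All motifs were searched on both strands, and motifs can overlap each other. CpG-poor promoters made up 93.9% of the 33 but 55.7% of all, and the letters were not compared at equal base composition.

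Of the 9 genes with C/EBP letters (F9, F11, Fga, Fgb, Klkb1, Hrg, Cpb2, C3 and C9), a shared region near a start was present at C3 alone, in its intron. Over all 33 genes it was present at 5 (15.2%). Of the 4 genes with SP letters (F5, Pros1, Klkb1 and C2), it was present at Pros1 and C2. With so few shared regions, these counts cannot show whether letters and a shared region go together. C/EBP letters stood in 7 of 20 coagulation genes (35%) and 2 of 12 complement genes (16.7%).

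**Figure D2:**
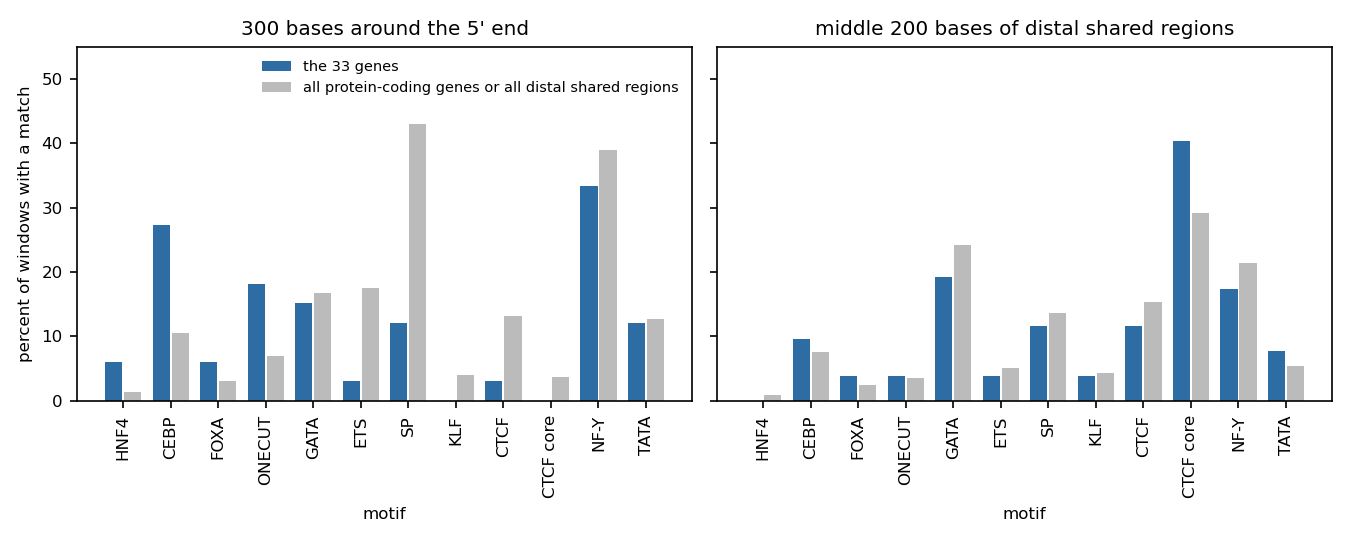
Percent of windows with at least 1 match to each motif (either strand) for the 33 genes (blue) and for all protein-coding genes or all 25847 distal shared regions (grey), in the 300 bases around the 5' end (left) and in the middle 200 bases of distal shared regions (right). C/EBP and ONECUT letters are more frequent at the starts of the 33 genes than at all starts (27.3% against 10.6% for C/EBP), and at their distal regions the CTCF core, which was added after some of those regions had been read, is the most frequent match (40.4% against 29.2%).

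Away from the starts, open chromatin around these genes was closer to the background. Regions are called distal when over 1 kb separates them from all protein-coding starts. Within 50 kb of a start, 24 of 33 genes (72.7%) had a distal shared region, against 71% of all protein-coding genes, so the share was near the background. The mean number was 1.64 per gene (median 1), against 2.32 (median 2) for all genes. It was 1.45 for the coagulation genes, 13 of 20 of which had any, and 1.83 for the complement genes, with 10 of 12. The 33 genes fall into 24 loci when windows that overlap are joined, 6 of them with several genes (15 genes in all), and 22 of the 24 loci held a distal shared region.

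**Figure D3:**
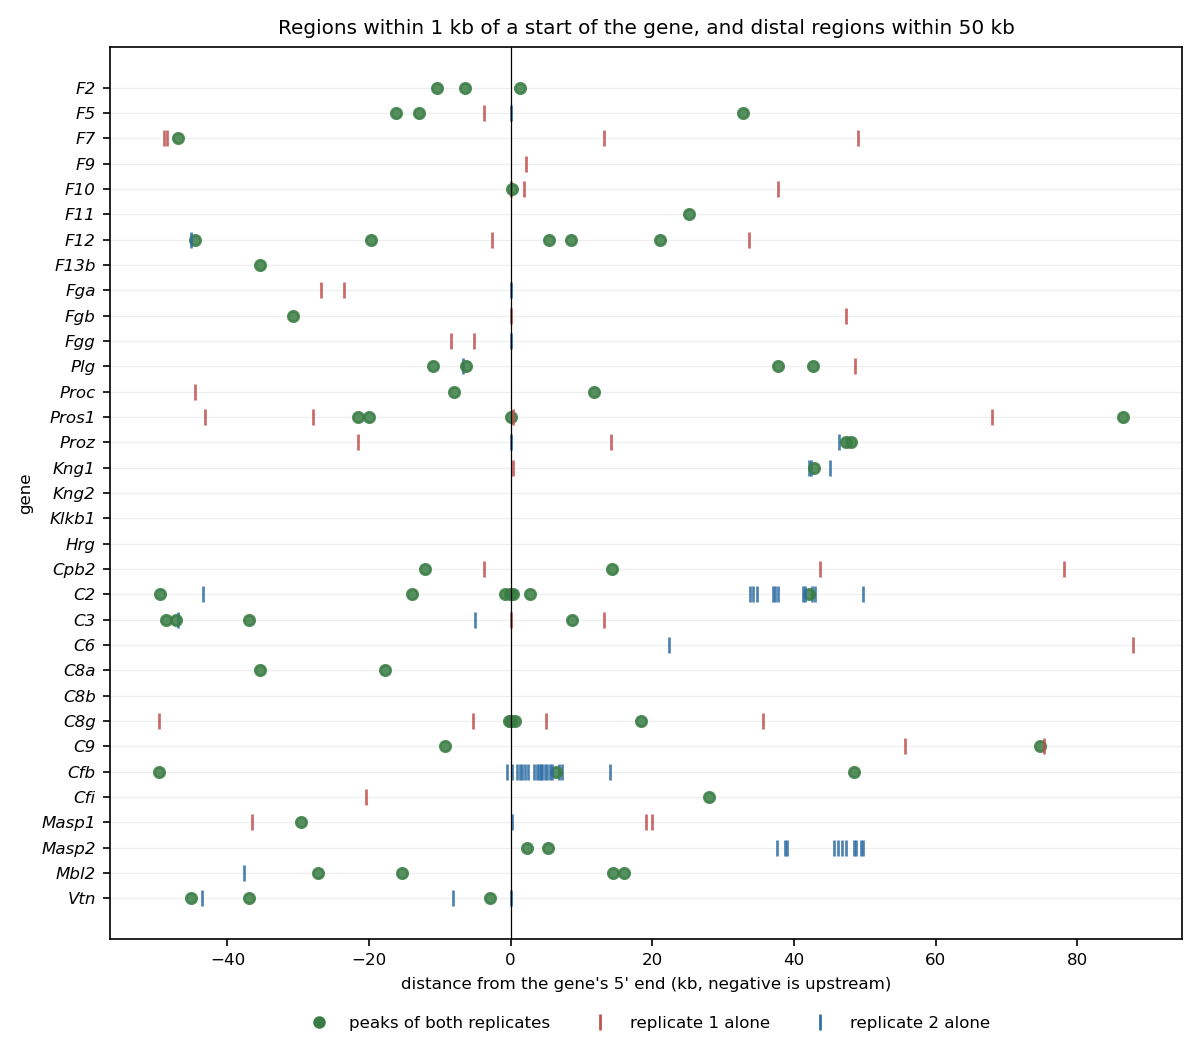
Regions within 1 kb of a start of each gene, and distal regions within 50 kb of any of its starts, placed by distance from the gene's 5' end (kb, negative is upstream). Circles are regions with peaks of both replicates and ticks are peaks of replicate 1 (red) or replicate 2 (blue) alone. Regions within 1 kb of a start of another gene only are not drawn. Plg and Mbl2 have 4 distal shared regions each, and the blue ticks crowd at Cfb and Masp2.

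The 52 distinct distal shared regions were spread unevenly. F12 had 5, Plg and Mbl2 had 4 each, and F9, F10, Fga, Fgg, Kng2, Klkb1, Hrg, C6 and C8b had none. C8b had no region of any kind within 50 kb. For 22 of the 52 the nearest protein-coding start belonged to 1 of the 33 genes, and these fell to 13 genes. All 4 regions of Plg and all 4 of Mbl2 were among them, and so were those of Proc, Cpb2 and Masp2 with 2 each. The others lay nearer to a start of a gene that is not among the 33.

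Plg encodes plasminogen, the precursor of the protease that dissolves fibrin. Its highest region, chr17:12372141-12372320, lay 6288 bp upstream in intergenic sequence, with 1.84 in replicate 1 (145 counts) and 2.00 in replicate 2 (332 counts). The next, chr17:12416301-12416520 in a Plg intron, had 1.27 and 1.42, and the remaining pair had 0.810 and 0.646, and 0.570 and 0.658. All 4 Plg regions held a shared footprint, and the gene had no peak at its start in either library. Mbl2, which encodes mannose-binding lectin, also had 4 distal shared regions and no peak at its start, and 3 of the 4 held a shared footprint. The regions, between 14499 and 27262 bp from the start, ran from 0.620 to 0.772 in replicate 1 and from 0.489 to 0.748 in replicate 2. Shared footprints were common in distal shared regions. The 52 such regions around the genes described here held 57, and all 25847 held 28595. The share of all distal shared regions that held any was not counted, so the Plg and Mbl2 counts are not shown to be unusual.

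Masp2 encodes the protease that cleaves C4 and C2 in the lectin pathway. It had 2 shared regions inside the gene, in an intron 2346 bp from its start (chr4:148604921-148605120, 2.15 in replicate 1 and 1.88 in replicate 2) and over a coding exon 5286 bp from it (1.59 and 1.35). F2, the prothrombin gene, had a region over a coding exon 1255 bp from a start (chr2:91634921-91635140), with 2.30 in replicate 1 (182 counts, 1.98 to 2.66) and 0.972 in replicate 2 (161 counts, 0.828 to 1.13). The F2 intervals did not overlap, and its ratio of 0.422 lay under the median of 0.878. Proc, the gene of protein C, had regions on mouse chromosome 18 in an intron (0.443 and 0.767) and upstream (0.937 and 1.02). Cfi, whose product cleaves C3b and C4b, had 1 region in an intron, at 0.911 and 0.936.

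The distal regions with the highest values at these genes lay nearer to starts of other genes. The region of C2 and Cfb at chr17:34912181-34912380 had 3.52 in replicate 1 and 3.63 in replicate 2 and lay in an Ehmt2 intron, 1206 bp from an Ehmt2 start. That of Proz at chr8:13108281-13108600 had 3.44 and 2.17 and lay in Cul4a, a ubiquitin ligase scaffold gene. That of F12 at chr13:55446521-55446860 had 3.39 and 2.03 and lay in Grk6, a receptor kinase gene. In replicate 2 the second highest was another F12 region, chr13:55418161-55418340, with 2.43 and 3.15, which lay over a coding exon of F12 and 2929 bp from a start of Pfn3. Counted over all 52 regions, the median value was 0.968 in replicate 1 and 0.794 in replicate 2, against 1.14 and 0.911 for all distal shared regions.

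**Figure D4:**
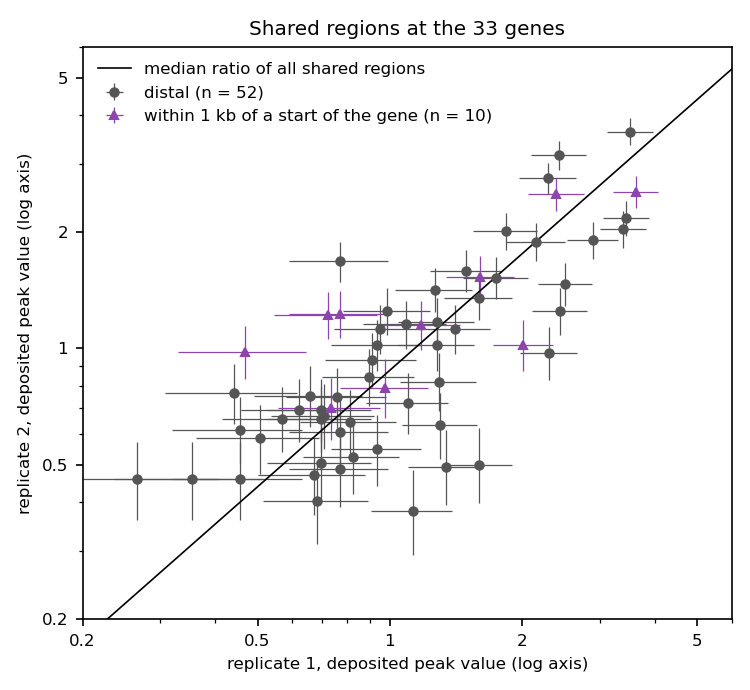
Deposited peak values in replicate 1 (x) and replicate 2 (y), both on log axes, for the 52 distal shared regions (circles) and the 10 shared regions within 1 kb of a start (triangles) of the 33 genes, with 95% Poisson intervals of the counts. The line is the median ratio of all shared regions, 0.878. Points lie on both sides of it, and the lowest point is a region of F5 at 1.13 in replicate 1 and 0.380 in replicate 2.

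Sequences of distal shared regions with footprints show what was protected there. Those of Plg, Masp2 and Mbl2 lie nearest to a start of their own gene, and that of F12 lies in Grk6. They are chr17:12372141-12372320, chr4:148604921-148605120 and chr19:30217401-30217600 on the plus strand, and chr13:55446521-55446820 on the minus strand. The intron region of C3 (chr17:57219241-57219460) and part of the C8g region that holds starts of C8g and Fbxw5 (chr2:25500614-25500749) follow, both on the minus strand. They are the promoter regions with the most shared footprints, clipped where an untranslated exon lay. Capitals mark footprints that overlap between the replicates by at least 1 bp. Each is drawn as the joined span of both, so some bases may be protected in 1 library only. The distal picks were made after values were seen.
Plg: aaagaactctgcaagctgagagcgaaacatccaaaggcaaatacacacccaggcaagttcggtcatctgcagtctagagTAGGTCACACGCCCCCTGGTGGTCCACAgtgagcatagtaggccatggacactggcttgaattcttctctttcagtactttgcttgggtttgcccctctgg
Masp2: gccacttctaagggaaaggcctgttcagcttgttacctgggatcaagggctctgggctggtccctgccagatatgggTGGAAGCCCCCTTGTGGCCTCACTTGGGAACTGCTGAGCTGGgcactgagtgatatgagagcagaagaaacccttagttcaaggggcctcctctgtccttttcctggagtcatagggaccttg
Mbl2: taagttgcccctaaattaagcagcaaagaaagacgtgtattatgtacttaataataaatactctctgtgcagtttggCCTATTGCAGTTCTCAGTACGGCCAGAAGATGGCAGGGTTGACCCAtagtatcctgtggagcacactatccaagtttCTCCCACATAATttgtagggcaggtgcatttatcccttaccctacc
F12: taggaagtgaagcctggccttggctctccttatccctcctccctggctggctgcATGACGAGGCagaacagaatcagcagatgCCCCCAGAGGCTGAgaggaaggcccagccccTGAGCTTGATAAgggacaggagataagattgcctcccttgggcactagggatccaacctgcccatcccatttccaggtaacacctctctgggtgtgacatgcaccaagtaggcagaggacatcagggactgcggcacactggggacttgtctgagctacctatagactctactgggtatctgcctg
C3: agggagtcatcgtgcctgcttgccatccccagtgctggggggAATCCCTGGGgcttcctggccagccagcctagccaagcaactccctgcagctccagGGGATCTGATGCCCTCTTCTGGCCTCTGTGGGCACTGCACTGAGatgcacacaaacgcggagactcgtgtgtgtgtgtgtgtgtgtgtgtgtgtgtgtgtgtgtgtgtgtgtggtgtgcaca
C8g: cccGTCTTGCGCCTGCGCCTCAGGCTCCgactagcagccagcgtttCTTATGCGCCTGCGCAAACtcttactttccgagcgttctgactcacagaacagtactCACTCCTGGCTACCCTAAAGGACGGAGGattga

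The footprints of the Plg and Masp2 regions, and the longer footprint of each of the Mbl2 and C3 intron regions, held a match to the core of the CTCF motif. CTCF is a zinc finger protein that binds insulators and loop anchors in most cell types. This core of 12 positions was added to the search after these sequences had been read. In F12 the capitals include a GATA match. In the middle 200 bases of the 52 distal shared regions, the CTCF core was found in 21 (40.4%), against 29.2% of all 25847 distal shared regions. The regions that prompted the search are inside that count. Without the regions of Plg, Masp2 and Mbl2 the core was found in 14 of 42 (33.3%), close to the background. All 4 Plg regions and both Masp2 regions held it. The shorter CTCF letters (GGNGGCAG) of the original motif list stood below their background. They were found in 6 of 52 distal regions (11.5%) against 15.3%, and in 1 of 33 promoters (3.03%) against 13.2%.

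At the distal regions, letters of liver factors stood near their background. HNF4 letters were found in 0 of 52 against 0.929% of all distal shared regions, and C/EBP letters in 5 (9.62%) against 7.61%. FOXA letters were found in 2 (3.85%) against 2.36%, and ONECUT letters in 2 (3.85%) against 3.57%. GATA letters were found in 10 (19.2%) against 24.2%. In the 57 shared footprints of these regions, GATA letters were found in 2 (3.51%), against 4.01% of all 28595 such footprints.

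The share of regions common to both libraries was higher around the coagulation genes than around the complement genes, a difference that rested on the C2, Cfb and Masp2 loci. Counting each region within 50 kb once, promoters of neighbours included, 110 of 244 (45.1%) were shared, against 46.2% of all merged regions. For the coagulation genes it was 51 of 93 (54.8%), with 28 regions of replicate 1 alone (30.1%) and 14 of replicate 2 alone (15.1%). For the complement genes it was 50 of 134 (37.3%), with 22 of replicate 1 alone (16.4%) and 62 of replicate 2 alone (46.3%). Over all merged regions, 28.4% were of replicate 1 alone and 25.4% of replicate 2 alone. With 1 group of samples, this difference was not tested.

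The replicate 2 excess came from a pair of loci. The windows of C2 and Cfb held 37 of the regions of replicate 2 alone, and that of Masp2 held 15. Without these 3 genes, a choice made after seeing the data, 90 of 167 regions (53.9%) were shared. Those of replicate 2 alone then numbered 29 (17.4%), below the 25.4% over all merged regions. The complement genes then had 30 of 57 shared (52.6%), near the 54.8% of the coagulation genes. The regions at both loci were low. At C2 and Cfb 29 of 37 had a value under 0.3, a limit set after seeing the data, and at Masp2 12 of 15 did, against 3 of 29 around the other genes and 33.2% of all regions of replicate 2 alone. At Masp2, 11 of them were distal, lay 37561 to 49729 bp from its start near Gm572, and had values from 0.0785 to 0.296.

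Some of these low regions had small FDR values. The Masp2 region at chr4:148649401-148649600 had 0.296 in replicate 2 with a minimum FDR of 4.45e-18. The Cfb start region, at 0.634, reached 2.51e-29, while the Vtn start region, at 0.592, reached 0.0115. At Cfb, 11 regions of replicate 2 alone lay within 1 kb of its starts, at 0.157 to 0.634, all but 2 of them over coding exons. Replicate 1 had none there, and no base under the FDR limit within 1 kb of a Cfb start.

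Regions of replicate 1 alone were near their background in value. The median value over the 29 distal regions of replicate 1 alone was 0.506, against 0.481 for all such distal regions. None of the 29 had a base under the FDR limit in replicate 2, but of all 53 regions of replicate 1 alone within 50 kb, promoters included, 12 did. Fga and Fgg, with no distal shared region, had regions of replicate 1 alone at chr3:83002345-83002493 (0.418) and chr3:82999143-82999273 (0.367), both upstream of Fgg. F9, the gene of the factor missing in hemophilia B, had 1 region in its 50 kb windows, a peak of replicate 1 at 0.240 in its own intron.

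Other genes of the same pathways were grouped in a pair of lists, the first of which also held the fetuin genes Fetub and Ahsg, which belong to neither pathway. Of 21 genes for further plasma components and regulators, most of them made by the liver but with F13a1, Cfp and Fcna known from blood cells, 3 (14.3%) had a shared promoter region, 6 had peaks of 1 replicate and 12 had none. The 3 were C1ra (0.696 in replicate 1 and 0.622 in replicate 2), Serpinc1, the antithrombin gene (0.392 and 0.531), and the fetuin gene Fetub (0.481 and 0.386). The second list held 23 genes for receptors, cell surface inhibitors, vessel wall proteins, vitamin K enzymes and components made largely outside hepatocytes. Of these, 15 (65.2%) had a shared promoter region, near the 58.4% of all protein-coding genes. The highest were those of Vkorc1, the vitamin K epoxide reductase on which clotting factors depend (12.2 and 8.40), and Cd59a, which blocks the complement pore (9.28 and 8.17). The mean number of distal shared regions was 3.87 for the second list, 1.48 for the first and 2.32 for all protein-coding genes. C1qa, C1qb, C1qc, Cfd, C5ar1 and Plaur of the same list had no peak within 1 kb of a start. Both lists were chosen with earlier results known, and the difference was not tested.

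**Figure D5:**
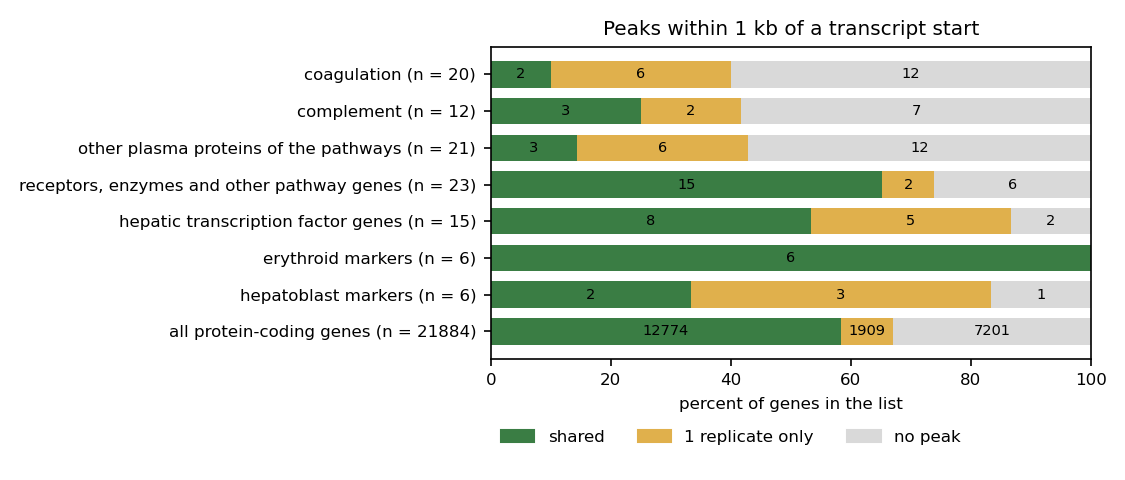
Percent of genes in each list with a shared region (green), peaks of 1 replicate only (yellow) or no peak (grey) within 1 kb of a transcript start, with gene counts printed in the bars. The coagulation, complement and other plasma protein rows show 2, 3 and 3 genes in green, against 15 of 23 for the list of receptors, enzymes and other pathway genes and 12774 of 21884 for all genes.

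Marker genes of cells that the tissue can hold differed widely. All 6 erythroid markers had a shared promoter region, against 58.4% of all protein-coding genes. The mean number of distal shared regions was 9.5 for these markers, against 2.32 for all genes. Of 6 hepatoblast markers, 2 had a shared promoter region, Afp (1.40 in replicate 1 and 1.42 in replicate 2) and Trf (1.00 and 1.07). Alb, Ttr and Apoa1 had peaks of 1 replicate, as Fga, Fgb and Fgg did, and Dlk1 had none. A shared promoter region was found for 3 of 5 megakaryocyte, 1 of 5 endothelial and 0 of 5 macrophage markers. Of 15 genes for hepatic transcription factors, 8 (53.3%) had a shared promoter region, near the 58.4% of all genes. Cebpa (2.84 and 3.11) and Foxa3 (12.0 and 7.93) were among them. Hnf4a had peaks of replicate 2 alone. The part of the tissue's cell make-up in the low count at the 33 genes was not tested.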

How the data were processed

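DNase-seq peaks, footprints and FDR values of 2 embryonic liver libraries (1 group of 2 replicates) were used. Per the submitters' notes deposited with the files, the authors derived peaks, per-base FDR and footprints from each library's own filtered alignment on mm10. The aligner and callers were not given in the sources used here. The peak signal values deposited by the authors have no stated normalization and were divided by their step to recover counts (whole within 0.05 of a step), with 95% Poisson intervals. The FDR, a p-value corrected for many bases, is listed by the authors where it is under 0.05, and the footprint lists carry a p-value threshold of 0.01. Each library has 2 peak lists. The longer was used and the shorter tried as an alternative.

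Peaks were merged by an overlap of 1 bp, and a region with peaks of both replicates was called shared. Footprints were paired between the libraries by the same overlap and taken as the span of both. Where a library had several peaks in a region, the highest value was taken. Starts came from GENCODE M21 (GRCm38.p6), with 21884 uniquely named protein-coding genes. Promoter windows reached 1 kb from any transcript start and distal windows 50 kb. Counting was tested on simulated peaks. Python with numpy 2.4.6 and scipy 1.17.1 was used. The members and lists were chosen with earlier results of these data known. All 33 genes are named by rule, with full values for start peaks and leading distal regions. Other genes are named for the highest values of a list, as markers, or where their start lay nearer to a region. Lists are described by counts beside all genes, with no test. Alternatives covered the peak list, overlap, value limit, starts, windows, footprint rules and leaving out each replicate. Not every gene and motif of the lists is reported here.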

Additional observations from a re-analysis of the deposited data

How the results depend on the processing

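Of 67 alternative values, 48 moved by no more than the spread allowed and 19 moved by more. The spread allowed was 1.5 times for counts and the binomial interval for a percent. For means it was the standard deviation of the values from each replicate's own peaks. With the upper 50% of peaks by value, genes with start peaks of 1 replicate fell from 9 to 0, coagulation genes with a shared promoter region from 2 to 1 and their mean number of distal shared regions from 1.45 to 0.75, while the shared percent within 50 kb rose from 45.1 to 68.0. With the shorter peak list the genes with start peaks of 1 replicate numbered 2. With a promoter window of 2.5 kb, shared promoter regions were found for 9 of the 33 genes and for 5 complement genes, and shared footprints for 8. The shares over all genes at that window were not counted. With a distal window of 20 kb the coagulation mean was 0.75 and the complement mean 0.917. With 100 kb they were 2.95 and 3.25. The complement mean also fell, from 1.83 to 0.833, with the upper 50% of peaks. Its falls at 20 kb and with those peaks were within the spread allowed, which was wider for complement than for coagulation. Leaving out C2, Cfb and Masp2, an alternative chosen after seeing the data, gave a shared percent of 53.9.

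With 1 replicate left out, a region needed a peak of the other only. The genes with a promoter region then numbered 7 of 33 (21.2%) with replicate 1, against 60.7% of all genes. With replicate 2 they numbered 12 (36.4%), against 65.3%. They were 4 to 6 of the coagulation genes and 3 to 5 of the complement genes. Genes with a footprint numbered 4 to 12, and the distal means ran from 1.75 to 2.65 for coagulation and from 2.92 to 4.50 for complement. The start peak of Fgb rests on 37 counts, with an interval of 0.330 to 0.645.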
